A study of Homo sapiens with 8 samples.

Results

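FLT3 and 7 genes related to it were followed through input RNA and ribosome footprints of a leukaemia line in which the circular RNA circMYBL2 was targeted. The 8 genes were taken by symbol from the 58302 genes listed in each table: the receptor tyrosine kinases FLT3, KIT, CSF1R, AXL, MERTK, IGF1R and INSR, and FLT3LG, which encodes the ligand of FLT3. MOLM-13, the cell line used, derives from acute myeloid leukaemia. It has both the MLL-AF9 fusion gene and an FLT3 allele with an internal tandem duplication. The cells carried either sh-circMYBL2, a hairpin against this circular product of MYBL2, or the control hairpin sh-NC. There were 8 libraries in 4 groups of 2, footprints and input RNA for each hairpin. All sh-circMYBL2 titles read Sh-cricMY1, while the footprint columns of this group read cricMY1 and cricMY2. That number may stand for the hairpin or for the replicate, so library b may come from another hairpin than library a, and the libraries are called a and b here. Whether the libraries within a group stem from separate cultures is not stated, so p-values measure only the spread between these libraries, which may be technical. circMYBL2 was not matched to any row of the tables, so its loss was not checked.

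Receptor tyrosine kinases span the plasma membrane, bind a ligand outside the cell and phosphorylate tyrosines inside it, which recruits adaptors that feed the RAS and PI3K pathways. FLT3, KIT and CSF1R belong to the same class, with immunoglobulin-like domains outside and a kinase domain split by an insert. AXL and MERTK are receptors of the TAM family, whose ligands, taken over the family and not for each receptor, are GAS6 and PROS1. IGF1R and INSR bind the insulin-like growth factors and insulin. In acute myeloid leukaemia the internal tandem duplication lies in the juxtamembrane region of FLT3 and makes the kinase active without ligand. The question behind the comparison, as the series title gives it, is whether circMYBL2 regulates translation of this form of FLT3.

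Input RNA depth was 13504153 to 14602701 reads on genes per library, while footprint depth was 222841 (a) and 715049 (b) with sh-circMYBL2 and 80149 and 300373 with sh-NC. MicroRNA genes took 32.8% and 12.2% of the footprint reads with sh-circMYBL2 and 42.7% and 57.2% with sh-NC. Protein-coding genes had 125760 and 584180 footprint reads with sh-circMYBL2 and 33708 and 88695 with sh-NC. Footprint values of the members therefore rest on few reads in sh-NC. The part that depth and the share of microRNA reads have in the footprint comparisons was not tested. Of 11 myeloid markers, 10 had a mean of at least 1 FPKM and CD14 was at or near 0. The summed level of these markers was 921 and 872 FPKM with sh-circMYBL2 and 764 and 718 FPKM with sh-NC. Most of it was LYZ, lysozyme, with 754 and 705 FPKM against 604 and 557 FPKM. ITGAM, an integrin of mature myeloid cells (5.29 and 4.79 against 2.84 and 2.85 FPKM), and CEBPA, a granulocyte and monocyte transcription factor (34.2 and 34.4 against 30.2 and 29.4 FPKM), both rose by limma with Benjamini-Hochberg adjustment (adjusted p = 0.0228 and 0.0468), where 4.92% of all genes were called higher. Without overlap between the hairpins, 5 of the 10 were higher and 3 lower, beside 30.0% and 30.7% of all genes tested. The 3 lower ones, not called by limma, were MPO, the granule peroxidase (2.27 and 2.32 against 3.18 and 3.21 FPKM, adjusted p = 0.0619), CSF3R (8.19 and 8.32 against 9.41 and 9.94 FPKM, adjusted p = 0.0848) and CD33 (13.9 and 13.7 against 15.4 and 15.1 FPKM, adjusted p = 0.108). Voom, a weighted fit to read numbers recovered from the values, called 4 of the 10 higher and 3 lower, beside 13.6% and 12.5% of all genes. LYZ, MPO, CSF3R and CD33 were named after their values were seen. Their part in the changes below was not tested. Among the 10 markers tested, 5 changes were above 0. No gene of the erythroid, lymphoid or epithelial marker lists reached a mean of 1 FPKM. PECAM1, which leukocytes also make, was the only gene of the stromal list that did.

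Among the members, input RNA of FLT3 stood far above the rest and was higher with sh-circMYBL2. The gene (FLT3, ENSG00000122025) spans 28003274 to 28100576 of chromosome 13 in GRCh38. It had 136 and 142 FPKM with sh-circMYBL2 and 102 and 109 FPKM with sh-NC, from 5653 to 8547 reads per library. Both sh-circMYBL2 libraries lay above both sh-NC libraries, and the groups averaged 139 ± 3.63 and 105 ± 4.48 FPKM (SD, n = 2 each). On the log2(FPKM + 1) scale FLT3 rose by 0.40 (SE 0.04, 95% interval 0.28 to 0.52, adjusted p = 0.0232 in limma over all 12489 genes tested). This is a fold of 1.32 (1.21 to 1.43). Of all genes tested, 8.88% were called, 4.92% higher, and 6.82% had a larger rise than FLT3. The call of FLT3 was lost with no filter on low genes (adjusted p = 0.0752) and with the replicate number as a block (adjusted p = 0.0546). Likewise, limma called no gene at all when any of the 4 was left out. The change of FLT3 was then 0.42 and 0.37 without sh-circMYBL2 library 1 and 2, and 0.35 and 0.44 without sh-NC library 1 and 2 (adjusted p from 0.0903 to 0.129). In bulk RNA, more cells that make a transcript and more transcript per cell cannot be told apart. Values of FLT3 cover the whole gene, so both alleles, with and without the duplication, are counted together.

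The other receptors of the FLT3 class were low. CSF1R (ENSG00000182578, chromosome 5, 150053295 to 150113365), the receptor for the macrophage growth factors CSF1 and IL34, had 2.99 and 3.09 FPKM with sh-circMYBL2 and 2.61 and 2.16 FPKM with sh-NC. The groups did not overlap, as for 60.7% of all genes tested (30.0% higher and 30.7% lower), and the difference of 0.26 on the log2(FPKM + 1) scale did not pass in limma (SE 0.10, 95% interval -0.01 to 0.53, adjusted p = 0.181). limma voom on read numbers recovered from the values called it higher (0.36, adjusted p = 0.0289), along with 13.6% of all genes. KIT (ENSG00000157404, chromosome 4, 54657957 to 54740715), the stem cell factor receptor of early progenitors and mast cells, had 0.285 and 0.421 FPKM with sh-circMYBL2 and 0.122 and 0.125 FPKM with sh-NC. Those values rest on 22 and 34 reads against 9 and 10, and the groups did not overlap. KIT was below the mean of 1 FPKM that the main test asked for. Its ratio of reads, scaled to the library totals, was 2.87 (95% exact interval 1.68 to 5.12, counting error only), and with no filter limma gave 0.27 on the log2(FPKM + 1) scale (SE 0.08, adjusted p = 0.247). That scale understates the change of a gene so low.

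RNA of INSR, the insulin receptor, was close to level between the hairpins. INSR (ENSG00000171105, chromosome 19, 7112265 to 7294414) had 12.7 and 12.4 FPKM with sh-circMYBL2 and 12.5 and 13.0 FPKM with sh-NC, from 1732 to 1952 reads per library. The libraries of the hairpins were interleaved, and the 95% interval of the change was narrow (-0.14 to 0.10 around -0.02, a fold of 0.906 to 1.07, adjusted p = 0.786 in limma). IGF1R (ENSG00000140443, chromosome 15, 98648539 to 98964530), the receptor for insulin-like growth factor 1, was under the filter. It had 0.779 and 0.698 FPKM with sh-circMYBL2 and 0.740 and 0.777 FPKM with sh-NC. Its 283 against 284 reads give a scaled ratio of 0.972 (95% exact interval 0.821 to 1.15, counting error only). The RefSeq annotation of GRCh38.p14 places IRAIN and a microRNA gene in the span of IGF1R. The spans of FLT3, CSF1R, AXL, INSR and MERTK also overlap with other annotated genes. Reads of overlapping genes were not separated with certainty.

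AXL was low, and MERTK and the FLT3 ligand were near the limit of these libraries. AXL (ENSG00000167601, chromosome 19, 41219223 to 41261766) had 1.16 and 1.02 FPKM with sh-circMYBL2 and 1.05 and 1.39 FPKM with sh-NC. These overlapped, and the change was -0.08 on the log2(FPKM + 1) scale (SE 0.13, 95% interval -0.45 to 0.28, adjusted p = 0.720 in limma). MERTK (ENSG00000153208, chromosome 2, 111898607 to 112029561), which macrophages use to engulf dying cells, had 0.153 and 0.264 FPKM with sh-circMYBL2 and 0.128 and 0.207 FPKM with sh-NC. The smallest read numbers that give these values are 5, 9, 4 and 7, at a gene length of 2350 bases. That length is shorter than the coding sequence of MERTK, so the true read numbers are larger by a common factor. FLT3LG (ENSG00000090554, chromosome 19, 49474215 to 49486231) had 0.202 and 0.266 FPKM with sh-circMYBL2 and 0.264 and 0.366 FPKM with sh-NC, from 8 to 15 reads per library. Its scaled read ratio was 0.741 (95% exact interval 0.386 to 1.40, counting error only). Both genes overlapped between the hairpins.

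**Figure D1:**
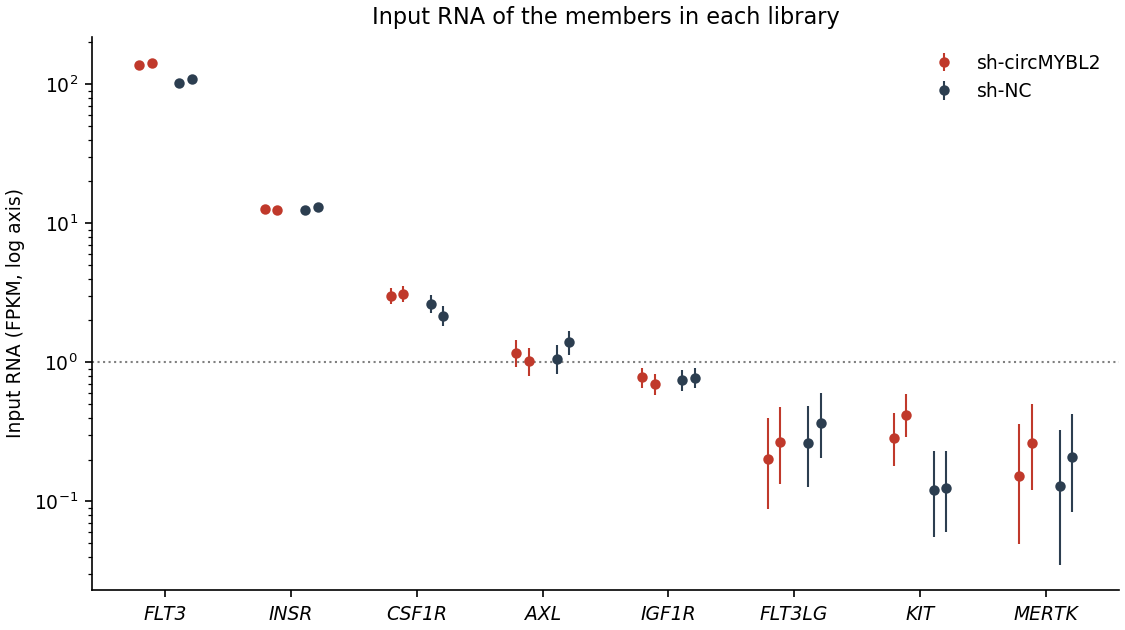
Input RNA of the 8 members in FPKM on a log axis, with sh-circMYBL2 libraries left of sh-NC libraries and the dotted line at the filter of 1 FPKM. Points are single libraries and bars are 95% Poisson intervals for counting error (for MERTK, from the smallest read numbers that give the values). FLT3 lies near 100 FPKM and above, INSR near 12 FPKM, and FLT3LG, KIT and MERTK below 0.5 FPKM.

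Over the 4 RNA libraries the order of the mean levels, which are scaled to gene length, was FLT3 (122 FPKM), INSR (12.6), CSF1R (2.71), AXL (1.15), IGF1R (0.748), FLT3LG (0.275), KIT (0.238) and MERTK (0.188). Down to IGF1R no library of a gene reached the range of its neighbour in the order. The ranges of FLT3LG, KIT and MERTK overlapped, so their order is not set. Of the members, 4 of 8 passed the RNA filter (FLT3, INSR, CSF1R and AXL), and FLT3 was called. Footprints gave FLT3 and INSR as the highest members too, at a mean of 86.6 and 14.5 RPKM over the 4 libraries.

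FLT3 also led the whole receptor tyrosine kinase family. Of 58 human receptor tyrosine kinases, all were listed, 54 had an RNA read and 9 had a mean of at least 1 FPKM. FLT3 held 80.3% and 80.8% of the summed FPKM of the family with sh-circMYBL2 and 75.9% and 76.7% with sh-NC. In footprints its share of the summed RPKM was 64.4% and 71.1% with sh-circMYBL2 and 66.2% and 60.5% with sh-NC, and 22 of the 58 genes had any footprint read. In RNA, INSR came next, then RYK, a WNT co-receptor without kinase activity (5.85 and 5.81 against 6.36 and 6.39 FPKM), then CSF1R. Of the 9 tested, FLT3 was called higher and none was called lower, with 5 of 9 changes above 0 and a median of 0.07, beside a median of -0.0037 over all genes. Without overlap, 4 were higher and 2 lower, beside 30.0% and 30.7% of all genes. By voom on recovered reads FLT3, EPHB3 and CSF1R were called higher and LMTK2 lower, beside 13.6% and 12.5% of all genes. EPHB3, an ephrin receptor, had 1.78 and 2.14 FPKM against 1.05 and 1.07 FPKM (0.52 on the log2(FPKM + 1) scale, adjusted p = 0.0688 in limma). LMTK2, a membrane kinase, had 2.14 and 2.15 FPKM against 2.92 and 2.94 FPKM (-0.32, adjusted p = 0.0738). RYK, EPHB3 and LMTK2 were named after their values were seen.

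**Figure D2:**
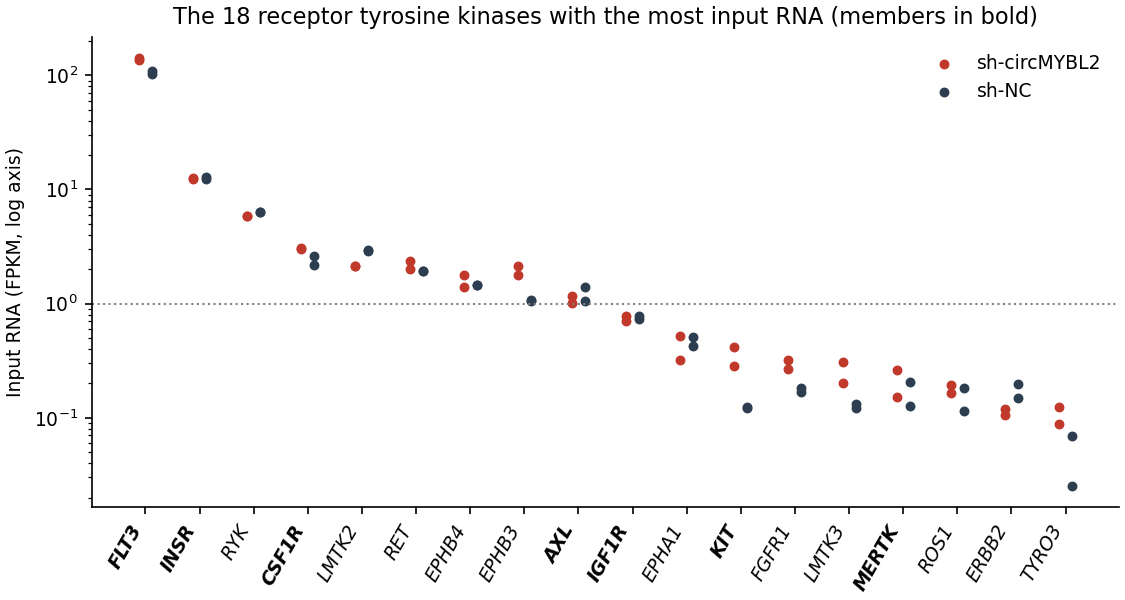
Input RNA of the 18 receptor tyrosine kinases with the highest mean over the 4 RNA libraries, in FPKM on a log axis, with sh-circMYBL2 left of sh-NC, a point for each library, members in bold and the dotted line at 1 FPKM. FLT3 at 102 to 142 FPKM lies about an order of magnitude above INSR, and 9 genes have a mean above the line.

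At rank 155 of 15417 protein-coding genes above 0 in input RNA and rank 123 of 10820 in footprints, FLT3 was among the abundant messages of these cells. The 5 protein-coding genes nearest to FLT3 in log2(value + 1) over the 8 libraries, out of 4198 above 0 in all of them, were MTDH, SRSF1, PRKDC, MYB and MSN. Their distance was 0.882 to 0.948 log2 units, against a median of 9.50 over the compared genes. This likeness is mostly one of level. MTDH had 133 and 129 FPKM with sh-circMYBL2 and 132 and 137 FPKM with sh-NC, and MYB, a transcription factor of blood progenitors, had 121 and 117 against 122 and 124 FPKM. Neither was called in RNA (adjusted p = 0.560 and 0.425 in limma), nor were SRSF1, PRKDC and MSN, where 8.88% of all genes tested were called. Without overlap between the hairpins, PRKDC was higher and SRSF1, MYB and MSN were lower, beside 30.0% and 30.7% of all genes.

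Footprints of FLT3 overlapped between the hairpins. With sh-circMYBL2, library a had 80.8 RPKM from 87 reads and library b 103 RPKM from 477 reads. With sh-NC, library 1 had 76.0 RPKM from 26 reads and library 2 had 86.8 RPKM from 67 reads. The upper sh-NC value lay between the sh-circMYBL2 values. The change was 0.17 on the log2(RPKM + 1) scale (SE 0.36, 95% interval -0.83 to 1.16, a fold of 0.562 to 2.24, adjusted p = 0.862 in limma). It was 0.80 with quantile normalization, -0.02 after scaling to protein-coding reads and -0.0074 without sh-circMYBL2 library b, so neither its sign nor its size is set. The pooled reads, 564 against 93, gave a scaled ratio of 1.18 (95% exact interval 0.949 to 1.49, counting error only). Scaling used the library totals that the RPKM values imply, 258923 (a) and 1113399 (b) with sh-circMYBL2 and 82265 and 185632 with sh-NC. These totals are not the reads on genes, which were 715049 in library b and 300373 in sh-NC library 2. The ratio and the RPKM values depend on these totals, and the effect of that difference was not tested. No footprint change of any gene was called by limma among 9431 tested (0% of genes, with 1212 at an unadjusted p under 0.05), while voom on recovered reads called 56.

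INSR had 15.9 and 16.2 RPKM (43 and 189 reads) with sh-circMYBL2, and 5.82 and 20.1 RPKM (5 and 39 reads) with sh-NC. The sh-NC libraries lay on either side of the others, and the shallower of them was the low one. The change was 0.51 on the log2(RPKM + 1) scale (SE 0.73, 95% interval -1.48 to 2.50, adjusted p = 0.787 in limma), and -0.31 without sh-NC library 1. CSF1R had 2.999 and 3.31 RPKM (4 and 19 reads) with sh-circMYBL2, and 0 and 4.18 RPKM (0 and 4 reads) with sh-NC. IGF1R had 1.43 and 0.864 RPKM (5 and 13 reads) against 0 and 2.79 RPKM (0 and 7 reads), and AXL had 0.749 and 1.39 RPKM (1 and 8 reads) against 0 and 2.09 RPKM (0 and 2 reads). In all 3 genes the shallowest library, sh-NC library 1, held no read, while sh-NC library 2 held the highest value. With 0 reads there, levels of up to 7.08 RPKM for CSF1R, 2.70 RPKM for IGF1R and 7.08 RPKM for AXL were not detectable (a floor of 3 reads). Their changes of 0.87, 0.13 and 0.22 on the log2(RPKM + 1) scale had SE of 1.05, 0.87 and 0.78 and did not pass (adjusted p = 0.750, 0.956 and 0.914 in limma). Without sh-NC library 1 they lay below 0, at -0.32, -0.833 and -0.595.

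KIT had 1.39 and 0.484 RPKM (2 and 3 reads) with sh-circMYBL2 and no read with sh-NC. Its 5 reads lay below the footprint filter, and floors of 6.56 and 2.91 RPKM in the sh-NC libraries exceed both values. FLT3LG and MERTK had no footprint read in any of the 4 libraries. Over the 4 libraries together, a count of 0 allows up to 0.643 RPKM for FLT3LG. Both genes had some RNA, below 0.4 FPKM in every library. Their translation was thus not detectable at this depth.

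**Figure D3:**
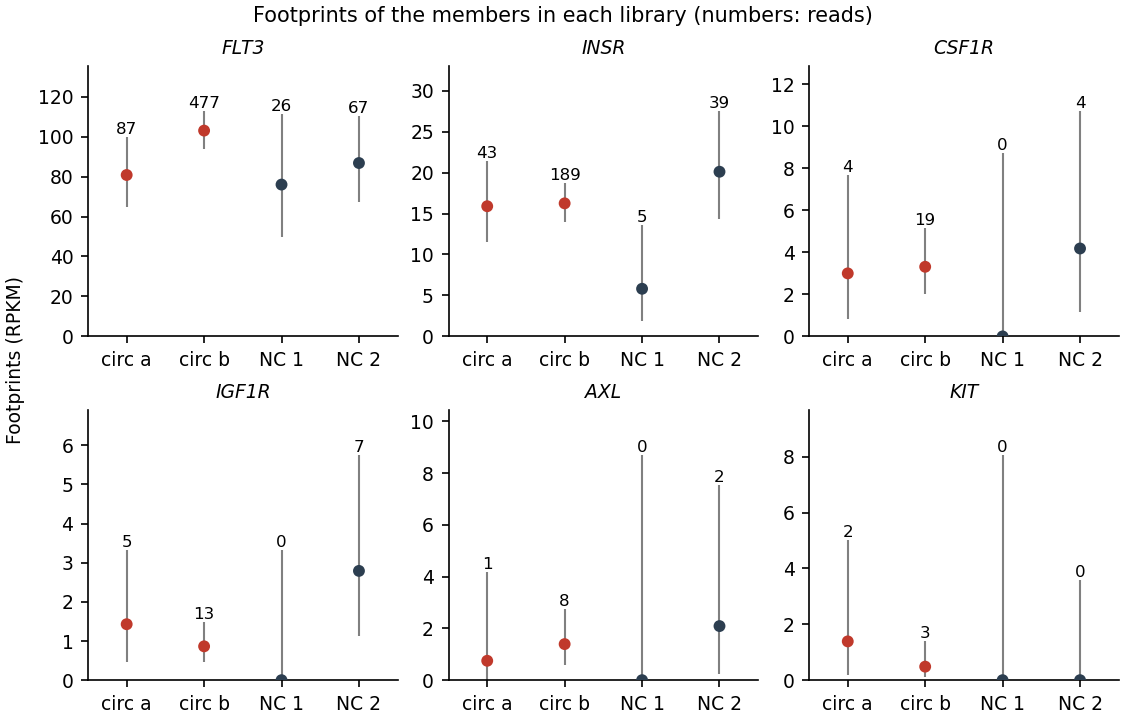
Footprints of the 6 members with a footprint read, in RPKM, for sh-circMYBL2 libraries a and b (circ) and sh-NC libraries 1 and 2 (NC), each panel with its own axis from 0. Bars are 95% Poisson intervals for counting error and the number above each is its reads. In FLT3 the 4 intervals overlap, and KIT has reads with sh-circMYBL2 only (2 and 3).

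The ratio of footprints to RNA was compared by hairpin as a description, since the tables were scaled separately. For FLT3 it was 0.661 with sh-circMYBL2 (0.581 and 0.741 by library) and 0.773 with sh-NC (0.721 and 0.824 by library). The median was taken over 7779 protein-coding genes that had 10 or more footprint reads in all and a mean RNA of 1 FPKM or more. It was 0.836 with sh-circMYBL2 and 0.589 with sh-NC. FLT3 thus lay below the median with sh-circMYBL2, where 38.5% of these genes had a lower ratio, and above it with sh-NC, where 58.3% did. Genes entered this set by reads pooled over both hairpins, most of which came from sh-circMYBL2. The set can thus hold genes with few or no reads in sh-NC, and its lower quartile was 0.211 with sh-NC and 0.482 with sh-circMYBL2. The part of this selection and of depth in the place of FLT3 was not tested. INSR had a ratio of 1.28 with sh-circMYBL2 (1.27 and 1.30 by library) and 1.02 with sh-NC (0.457 and 1.58 by library). CSF1R had 1.04 and 0.877, AXL 0.985 and 0.857, and IGF1R 1.55 and 1.84 with sh-circMYBL2 and sh-NC, on 23 or fewer footprint reads per hairpin. Their sh-NC ratios come from library 2 alone (1.75, 1.71 and 3.68, from 4, 2 and 7 reads), as library 1 gave 0. IGF1R was not in the gene set of the median. Lengths count untranslated bases, which footprints do not cover, so ratios of different genes are not on the same footing.

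Translational efficiency (footprint change minus RNA change) was tested as an interaction of hairpin and assay over all 8 libraries. For FLT3 it was -0.23 on the log2(value + 1) scale (SE 0.29, 95% interval -0.96 to 0.49, a fold of 0.516 to 1.41, adjusted p = 0.727 in limma). Voom gave -0.17 (adjusted p = 0.739), and quantile normalization turned the sign (0.16, adjusted p = 0.884). The other tested members had 0.61 (CSF1R, SE 1.06), 0.53 (INSR, SE 0.74) and 0.30 (AXL, SE 0.79), with adjusted p = 0.804, 0.753 and 0.871. None of the 4 was called, beside 5.31% of the 8260 genes tested. CSF1R and INSR were called higher without sh-NC footprint library 2 (1.80 and 1.35, adjusted p = 0.00305 and 0.00165), but that fit called 3673 of the 8260 genes higher and 1222 lower. Without sh-NC footprint library 1, CSF1R, INSR and AXL lay below 0 (-0.578, -0.285 and -0.51). The sign of all 3 therefore follows which sh-NC footprint library is used.

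The median change over all genes was 0.56 in footprints and 0.57 in translational efficiency, so changes of the members are read against it. In footprints FLT3, INSR, AXL and IGF1R lay below the median and CSF1R above it. In translational efficiency FLT3, INSR and AXL lay below and CSF1R above. Quantile normalization moved them to 0.07 and -0.0045, and scaling to protein-coding reads to 0.42 and 0.41. With quantile normalization FLT3 lay above both medians, at 0.80 and 0.16, and so did INSR, at 0.36 and 0.38. CSF1R then lay below both, at -0.14 and -0.56. The side of the median on which FLT3, INSR and CSF1R lie thus depends on the setting. Among genes above 0 in every library the medians were -0.01 and 0.03. There FLT3 lay above the median in footprints (0.17) and below that in translational efficiency (-0.23). INSR lay above both of these medians, at 0.51 and 0.53. All 5 members tested in footprints had a change above 0 as deposited, but CSF1R, AXL and IGF1R were below 0 with quantile normalization (-0.14, -0.66 and -0.74) and FLT3 with scaling to protein-coding reads.

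**Figure D4:**
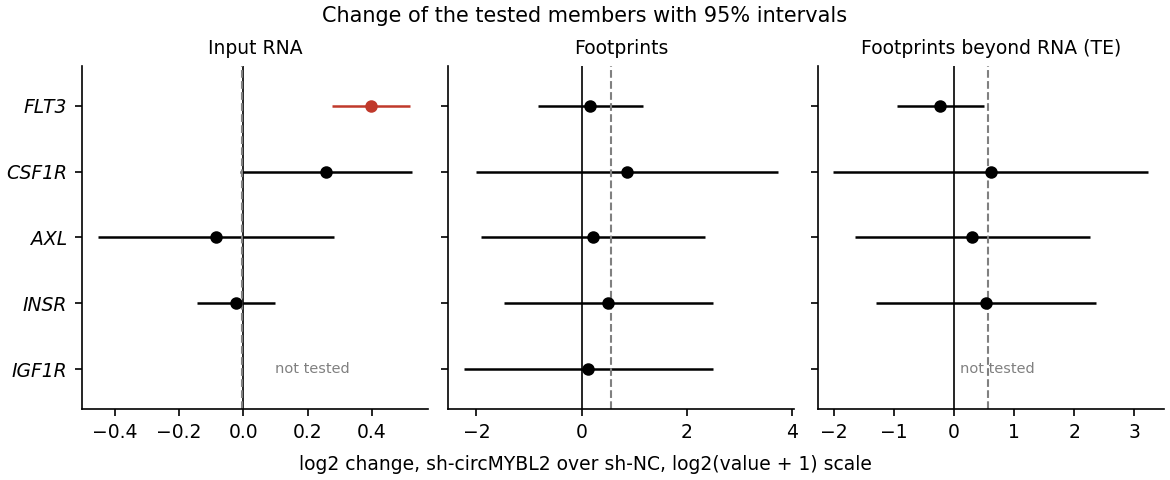
Changes of the tested members with sh-circMYBL2 over sh-NC on the log2(value + 1) scale, with 95% intervals from limma; each panel has its own axis, the dashed line is the median of all genes tested and red marks an adjusted p under 0.05. Only FLT3 in input RNA (0.40) is called, and footprint intervals of CSF1R, AXL, INSR and IGF1R all cross 0 and end between 2.36 and 3.74; footprint signs of CSF1R, AXL and IGF1R flip with quantile normalization and that of FLT3 with scaling to protein-coding reads.

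Ligands of the receptors came next. Of 9 ligand genes, 2 had a mean of at least 1 FPKM, and none was called by limma. PROS1, which encodes protein S, had 1.66 and 1.97 FPKM with sh-circMYBL2 and 0.984 and 0.863 FPKM with sh-NC (0.55 on the log2(FPKM + 1) scale, SE 0.12, adjusted p = 0.0683). Its sh-NC mean was 0.924 FPKM, so it passed the filter of 1 FPKM only through sh-circMYBL2. No change of PROS1 RNA is read from its tests. GAS6, the other TAM ligand, had 4.82 and 4.94 FPKM against 3.73 and 4.37 FPKM (0.22, SE 0.09, adjusted p = 0.185). Neither overlapped between the hairpins, and voom on recovered reads called both higher (adjusted p = 0.000242 and 0.0288), where 30.0% of all genes were higher without overlap and voom called 13.6% higher. PROS1 footprints were 0.872 and 1.42 RPKM (8 reads) against 13.7 and 3.65 RPKM (8 reads), lower without overlap, as for 10.9% of genes tested. That change of -1.96 did not pass (SE 0.89, adjusted p = 0.504). GAS6 footprints were 27.7 and 24.97 RPKM (210 reads) against 18.2 and 39.5 RPKM (53 reads). Of 9 IGF binding proteins, 2 were tested and none was called. IGF2R, the scavenger receptor for insulin-like growth factor 2, had 27.4 and 27.0 FPKM against 26.9 and 27.7 FPKM, and IGFBP7 had 20.2 and 15.9 against 17.4 and 16.7 FPKM.

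Among 14 adaptors tested, which link the receptors to RAS and PI3K, GRB10 was called lower and none higher by limma, with a median of -0.04 beside 3.96% of all genes called lower. Voom called 1 of the adaptors higher and 2 lower, beside 13.6% and 12.5% of all genes. GRB10, an adaptor that dampens signals of INSR and IGF1R, fell to 2.77 and 3.13 FPKM with sh-circMYBL2, against 4.47 and 4.73 FPKM with sh-NC (-0.51 on the log2(FPKM + 1) scale, SE 0.08, adjusted p = 0.0409 in limma). In translational efficiency DOK1 (2.55, adjusted p = 0.0312) and NCK1 (2.03, adjusted p = 0.0435) were called higher, as were 5.05% of all genes tested, and were named after their values were seen. DOK1 had 5 and 15 footprint reads with sh-circMYBL2 and none with sh-NC, and NCK1 had 3 and 10 against none. Both thus passed the footprint filter only through sh-circMYBL2, and the sh-NC values of 0 add no spread. No change of these genes is read from their calls. Voom called neither (adjusted p = 0.131 and 0.150). Of 9 attenuators tested, a list of phosphatases, ubiquitin ligases and inhibitory adaptors, PTPRJ was called higher and none lower (median 0.13), where 4.92% of all genes were called higher and 3.96% lower. Voom called 3 of this list higher and 2 lower, beside 13.6% and 12.5% of all genes. PTPRJ, a receptor phosphatase that acts on FLT3, rose to 12.2 and 11.9 FPKM with sh-circMYBL2, against 9.86 and 9.91 FPKM with sh-NC (0.26, SE 0.04, adjusted p = 0.0409). Its footprints were 17.3 and 14.3 RPKM (196 reads) against 6.32 and 6.72 RPKM (17 reads), higher without overlap as for 30.7% of genes tested (41.6% in either direction), and the change of 1.15 did not pass (SE 0.50, adjusted p = 0.484).

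No core gene of the downstream pathways passed. None of 9 RAS and MAPK genes tested (median -0.06) and none of 15 PI3K and AKT genes (median 0.07) was called by limma. MAP2K1, the kinase that phosphorylates ERK, had 9.47 and 10.6 FPKM with sh-circMYBL2 and 11.5 and 11.1 FPKM with sh-NC (-0.16 on the log2(FPKM + 1) scale, adjusted p = 0.231). PIK3CB, a catalytic subunit of PI3K, had 12.5 and 12.3 against 14.5 and 15.6 FPKM (-0.26, adjusted p = 0.0593). PIK3CG, the subunit that works below G protein-coupled receptors, had 12.1 and 13.3 against 10.8 and 10.4 FPKM (0.24, adjusted p = 0.0918). Voom on recovered reads called 8 of the PI3K and AKT genes, 6 higher and 2 lower, where it called 26.1% of all genes. It also called 1 of the RAS and MAPK genes higher.

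Of 8 cytoplasmic tyrosine kinases tested, 2 were called lower and none higher by limma (median 0.01), where 3.96% of all genes were called lower. Voom called 3 of this list higher and 2 lower, beside 13.6% and 12.5% of all genes. FYN, a kinase of the SRC family, fell to 3.18 and 2.93 FPKM with sh-circMYBL2, against 7.17 and 6.74 FPKM with sh-NC (-0.97 on the log2(FPKM + 1) scale, SE 0.07, adjusted p = 0.0117 in limma). It had 8 footprint reads with sh-circMYBL2 (0.521 and 0.848 RPKM) and none with sh-NC, under the footprint filter. Both sh-NC libraries held fewer footprint reads on protein-coding genes, so no difference in FYN footprints is read from this. As with FLT3, the calls of GRB10, PTPRJ and FYN were lost when any of the 4 RNA libraries was left out.

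**Figure D5:**
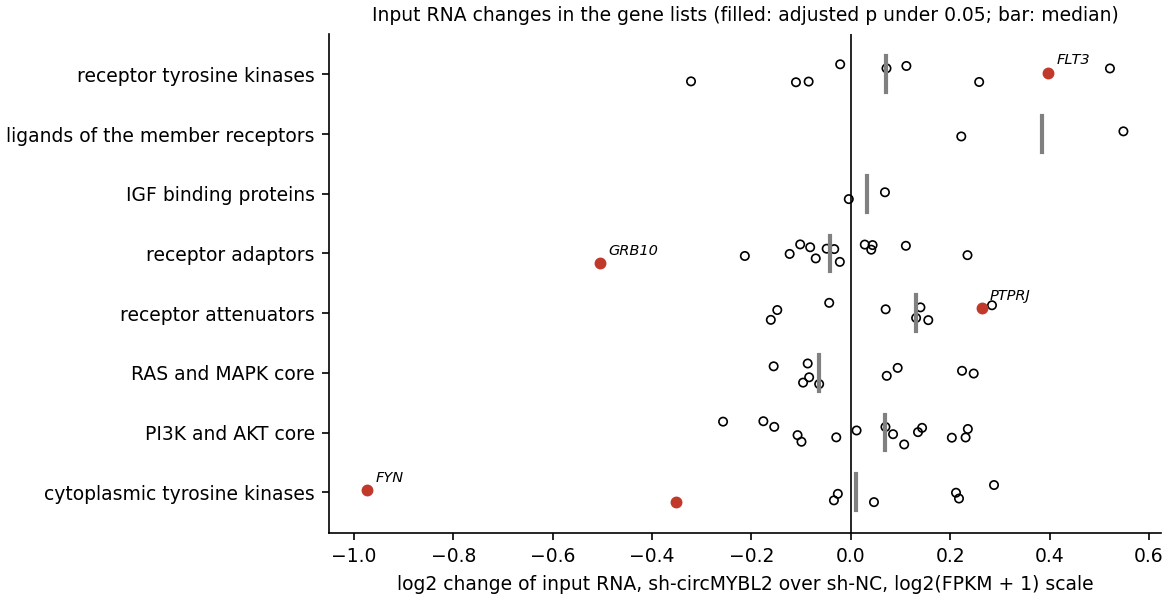
Change of input RNA of each tested gene in 8 lists around the receptors, with sh-circMYBL2 over sh-NC on the log2(FPKM + 1) scale; vertical scatter within a list has no meaning. Filled points have an adjusted p under 0.05 (among them FLT3 and PTPRJ higher, GRB10 and FYN lower), and grey bars are list medians, which lie between -0.06 and 0.13 except for the 2 ligands.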

How the data were processed

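Ribosomal RNA was removed and libraries were built with a kit for small RNA, per the labels' protocols. The submitters' processing notes name build hg38 and the tools cutadapt, HISAT2, Bowtie, DESeq2 and featureCounts. Versions, roles and strand: not given in the sources used here. Footprints were deposited as RPKM and input RNA as FPKM, both computed by the authors.

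Every value is a whole number of reads times a step of its library over the gene length. Steps came from microRNA genes with RefSeq hairpin lengths (98.6% to 99.4% of their values whole), and the smallest length giving whole reads within 0.002 was taken; 1 of 30194 genes above 0 had none. Recovered reads gave depths and intervals (95%, Poisson, exact or Wilson, counting error only) and a floor of 3 reads.

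Each table was fitted with limma 3.58.1 in R 4.3.3 (two-sided, with a mean-variance trend) on log2(value + 1). Genes needed a mean of 1 or more. Translational efficiency was an interaction over both tables; it gives a gene a single variance although footprints varied more, so its p-values may be too small. Benjamini-Hochberg adjustment ran over every gene tested in a comparison, and 0.05 was the threshold. An exact permutation test of 2 against 2 cannot go below 0.333. Read recovery and the fits were tested on simulated data. Symbols came from the footprint table, since 27 in the other had turned into dates. Coordinates are from RefSeq GRCh38.p14, the same build as hg38.

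The 8 members were described whatever their values. From other lists, up to 4 called genes without overlap were named by smallest p, or else the 2 with the smallest p; some genes that this rule names are not reported here. Members and lists were chosen with earlier results of these data known. Alternatives were pseudocounts of 0.1 and 5, other filters, quantile normalization, voom, protein-coding scaling, a replicate block and each library left out. Restriction to genes above 0 in every library was added after seeing the data.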

Additional observations from a re-analysis of the deposited data

How the results depend on the processing

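FLT3 RNA kept its direction throughout. Its call was lost with no filter (0.396, adjusted p = 0.0752), with a replicate block (0.396, adjusted p = 0.0546) and with a library left out (0.354 to 0.439). Same-numbered RNA libraries share only a number (correlation of deviations 0.027 over 12489 genes), so the block is no better design. No paired analysis was possible because the number in the sh-circMYBL2 footprint columns may mean the hairpin or the replicate, which holds for footprints and translational efficiency. RNA of CSF1R was called by voom (0.361). With a library left out, RNA changes ran from 0.161 to 0.355 (CSF1R), -0.195 to 0.0253 (AXL) and -0.0487 to 0.00591 (INSR). RNA genes called were 1109, 97 with no filter, 3257 by voom, 0 with the block (3373 at an unadjusted p under 0.05) and 0 with any library left out.

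Footprint signs were unstable. FLT3 had -0.0221 with protein-coding scaling and -0.00739 to 0.339 with a library left out. Quantile normalization gave -0.137 (CSF1R), -0.656 (AXL) and -0.743 (IGF1R), voom gave -0.549 (AXL) and -0.341 (IGF1R), and a pseudocount of 5 gave -0.0236 (IGF1R). With a library left out, values ran from -0.32 to 2.05 (CSF1R), -0.595 to 1.03 (AXL), -0.833 to 1.09 (IGF1R) and -0.306 to 1.32 (INSR). Limma called 0 footprint genes, voom 56, and 0 to 1042 were called with a library left out. Without sh-circMYBL2 library a or b, 1035 of 1042 and 997 of 999 calls had no read in sh-NC, whose lack of spread leaves almost no variance in that fit.

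In translational efficiency, quantile normalization gave 0.157 (FLT3), -0.563 (CSF1R) and -0.65 (AXL), and voom gave -0.298 (AXL). With a library left out, values ran from -0.404 to -0.0572 (FLT3), -0.578 to 1.8 (CSF1R), -0.51 to 1.12 (AXL) and -0.285 to 1.35 (INSR). Genes called were 439, against 853 and 2 with pseudocounts of 0.1 and 5, 42 with a mean of at least 5, 176 by voom, 0 with quantile normalization (1170 at an unadjusted p under 0.05), 0 among genes above 0 in every library (721), and 0 to 4895 with a library left out (4895 without sh-NC footprint library 2, 0 in each fit that lacked an RNA library). The causes of the other shifts were not tested.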
